A study of Mus musculus with 25 samples.

Results

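The Rian-Mirg miRNA cluster of the Dlk1-Dio3 imprinted domain was followed in vesicles taken from the livers of mice, the small extracellular vesicles (sEVs) that cells release. Members were every table entry named for a miRNA hairpin from Mir341 to Mir410, with all arms, which gave 70 of 1493 entries. The 70 came from 38 hairpins. The rule for entries used name and position and no values, but it was chosen with earlier results of these data known.

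All mice were wild-type C57BL/6J, with no transgene and no treatment named. The 5 groups of 5 mice were aged 1 week, 6 weeks or 6, 12 or 14 months. Both sexes were said to be equally represented, but the sex of each mouse was not used here. Livers were opened with an enzymatic tumour dissociation kit, sEVs were collected by ultracentrifugation, and each of the 25 libraries came from 1 mouse. The batch field of the labels repeats the age, so age and processing batch cannot be told apart. Hepatocyte miRNAs marked the tissue as labelled. CPM are counts per 1e+06 of a library total multiplied by its scaling factor (TMM). The 9 hepatocyte entries, miR-122-5p among them, summed to 399968 to 572160 CPM at 1 week. They summed to 622198 to 973566 CPM in the 20 libraries from mice of 6 weeks or older, called adult below. These sums are not shares of all counts. The factors were higher in every 1-week library than in any adult library, which by itself raises adult CPM relative to 1 week. Total counts were 2095925 to 6888928 at 1 week and 641579 to 3989776 in adults, so 3 counts, the floor used below, stood for 0.283 to 0.911 CPM at 1 week and for 0.978 to 4.89 CPM in adults. Floors and intervals cover counting error only.

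The Dlk1-Dio3 domain is imprinted: the long noncoding RNAs Meg3, Rian and Mirg are made from the maternal chromosome, and Dlk1, Rtl1 and Dio3 from the paternal one. The miRNAs along the maternal transcripts are cut from a long polycistronic RNA and are best known from embryo, placenta, brain and muscle. In newborn mice the cluster from Mir379 to Mir410 takes part in the metabolic adaptation of the liver to birth, and in adult liver miR-379 acts on lipoprotein secretion downstream of glucocorticoids. Each hairpin yields a 5p and a 3p arm, and bases 2 to 8 of an arm, the seed, set most of its target choice.

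On build GRCm38 the hairpins lay on chromosome 12 between 109611500 and 109743795, a stretch of 132.296 kb. Mir341 and Mir370 lay in introns of Rian (109603940 to 109661716, plus strand). Mir379, the first of the main block, started at 109709060. In GENCODE M21, 24 hairpins of this block lay between annotated genes and 12, from Mir382 to Mir410, lay within Mirg (109729764 to 109749460, plus strand), 8 of them in an exon and 4 in an intron. Mir299b lies on the minus strand, opposite Mir299a. The plot of levels along the locus shows where the most abundant hairpins sat.

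**Figure D1:**
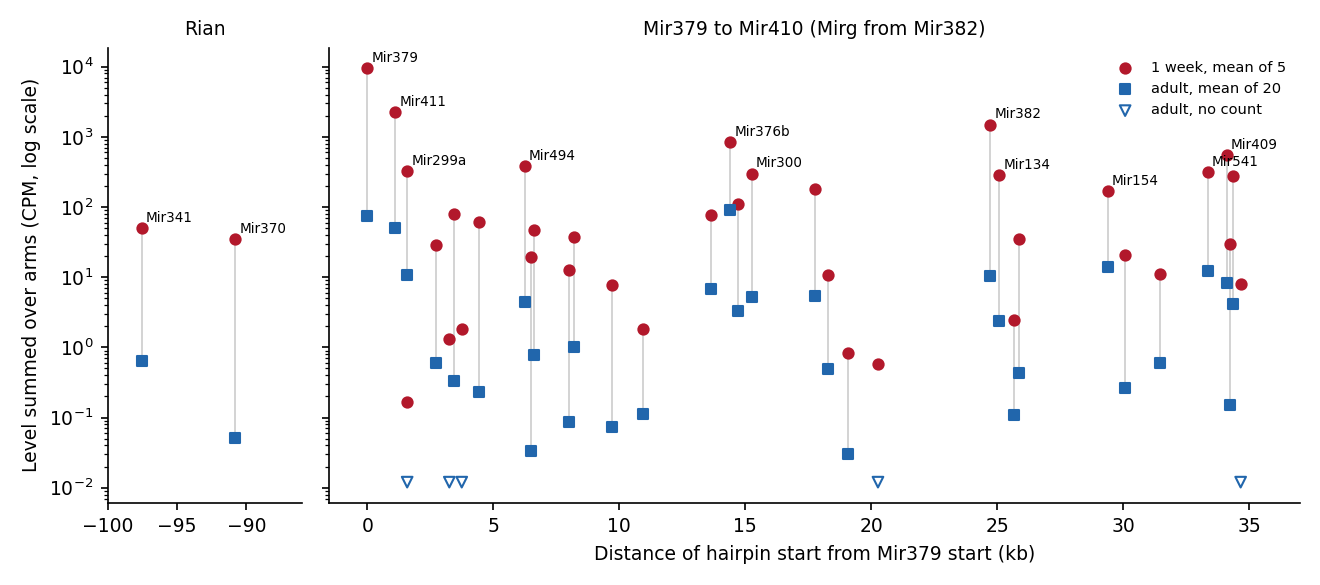
Mean level of each hairpin, summed over its arms, in CPM on a log axis, against the distance of its start from that of Mir379 in kb. Circles are means of 5 libraries at 1 week, squares means of 20 adult libraries, and open triangles hairpins without an adult count, drawn below the scale. Mir379 and Mir411, at the start of the block, are highest at 1 week, and Mir376b is highest in adults.

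A mature sequence was found in RefSeq (GRCm38.p6) for 66 of the 70 members, each with the length that the deposited table gives. The sequences of the members that the values below turn on are shown first, 5′ to 3′, with the seed in capitals. The first 11 are the most abundant members at 1 week or in adults, and the rest had the largest or smallest fold changes.
miR-379-5p: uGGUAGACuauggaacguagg
miR-411-5p: uAGUAGACcguauagcguacg
miR-382-5p: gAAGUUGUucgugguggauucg
miR-376b-3p: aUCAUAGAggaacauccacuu
miR-409-3p: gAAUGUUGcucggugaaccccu
miR-494-3p: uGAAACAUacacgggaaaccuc
miR-541-5p: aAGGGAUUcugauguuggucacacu
miR-134-5p: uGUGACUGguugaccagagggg
miR-300-3p: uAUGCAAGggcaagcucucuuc
miR-299a-3p: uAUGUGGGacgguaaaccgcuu
miR-154-5p: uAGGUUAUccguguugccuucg
miR-329-3p: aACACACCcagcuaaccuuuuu
miR-370-3p: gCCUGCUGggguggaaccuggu
miR-496a-3p: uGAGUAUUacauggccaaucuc
miR-679-5p: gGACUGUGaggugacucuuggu
miR-154-3p: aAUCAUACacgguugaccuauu

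The 66 sequences held 60 different seeds, and 6 seeds were each shared by a pair of members. The partners not yet printed are shown because reads of alike arms can be hard to keep apart.
miR-1193-5p: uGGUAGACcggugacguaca
miR-299b-3p: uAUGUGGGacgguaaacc
miR-376b-5p: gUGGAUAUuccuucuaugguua
miR-376c-5p: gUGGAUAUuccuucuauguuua
miR-379-3p: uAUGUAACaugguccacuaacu
miR-411-3p: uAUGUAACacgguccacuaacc
miR-370-5p: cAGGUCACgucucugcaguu
miR-1193-3p: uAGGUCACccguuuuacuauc
miR-494-5p: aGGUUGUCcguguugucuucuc
miR-410-5p: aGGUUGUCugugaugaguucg
The seed of miR-379-5p was shared with miR-1193-5p, which had 87 counts in all at 1 week and 2 in adults. The other pairs were miR-299a-3p with miR-299b-3p, miR-376b-5p with miR-376c-5p, miR-379-3p with miR-411-3p, miR-370-5p with miR-1193-3p, and miR-494-5p with miR-410-5p. Counted from the 5′ end, miR-376b-5p and miR-376c-5p differ by G19U, and their counts were equal in 18 of 20 adult libraries. They were not read as separate results. miR-379-3p and miR-411-3p differ by U10C and U22C, and their counts were equal in 12 of 20 adult libraries. By contrast miR-411-5p, next to Mir379 in the block, has a seed of its own. Outside the cluster, 4 entries shared a seed with a member. miR-362-3p, with the seed of miR-329-3p, averaged 18.2 CPM at 1 week and 34.9 CPM in adults. miR-1983, with that of miR-412-3p, averaged 115 and 4.03 CPM, and miR-672-5p, with that of miR-377-5p, 19.4 and 0.567 CPM. miR-7221-3p, with that of miR-679-5p, was at 0 at 1 week and averaged 0.0653 CPM in adults.

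The cluster was abundant at 1 week and scarce at every later age. Its summed level at 1 week was 10364 CPM in mouse 1, 12608 in mouse 3, 20814 in mouse 4, 12975 in mouse 5 and 30740 in mouse 27. In the 20 adult libraries the sum ranged from 108 to 606 CPM with a median of 247. Every 1-week library lay above every adult library. As a share of all counts, before any scaling, members made up 1.69 to 4.73% at 1 week and 0.00831 to 0.0656% in adults. In bulk vesicle RNA, fewer vesicles from one kind of cell and less of an RNA per vesicle cannot be told apart.

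**Figure D2:**
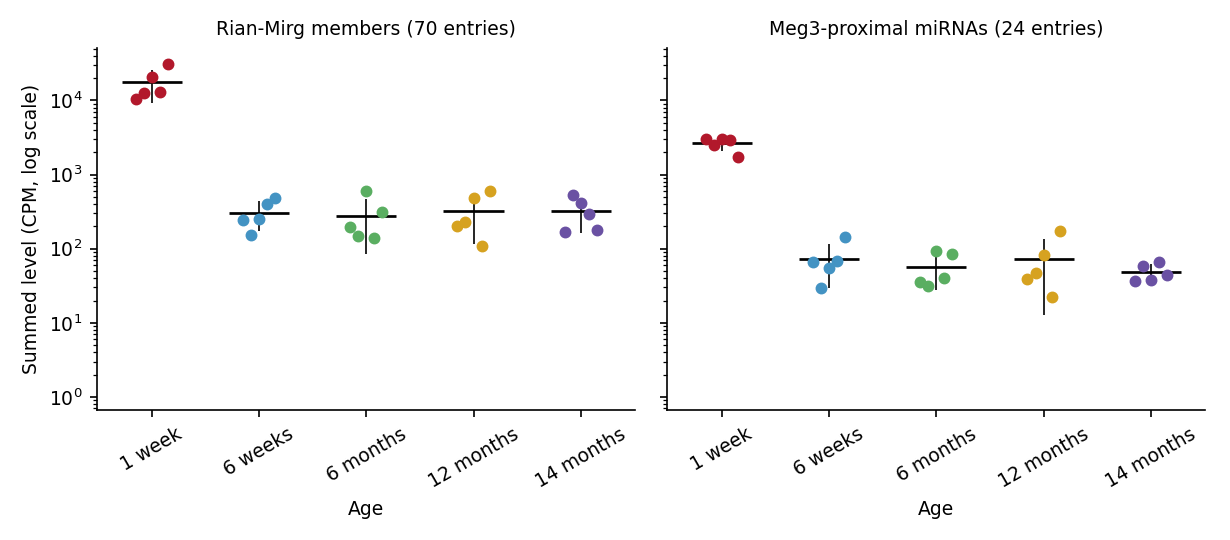
Summed CPM, on a log axis, of the 70 Rian-Mirg members and of the 24 miRNA entries closer to Meg3, by age. Points are single libraries, horizontal lines are means of 5 and vertical lines are ± 1 SD. Both sums are higher in all 5 libraries at 1 week than in any of the 20 adult libraries.

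Counts for 42 of the 70 members passed the filter on low counts and were tested with edgeR's quasi-likelihood test over all 391 entries that passed. At 6 weeks against 1 week, 42 of 42 fell and 0 rose at a Benjamini-Hochberg adjusted p under 0.05. In the same test 36.8% of all tested entries fell. Against the mean of the 4 adult ages 42 of 42 also fell, beside 40.4% of all entries, and over the 5 ages 42 of 42 differed, beside 75.4%. Most members passed the filter through their 1-week counts alone, so these counts are no measure of how many members fell. Only 9 members passed the same filter in adult libraries alone: miR-154-5p, miR-299a-5p, miR-300-3p, miR-376b-3p, miR-379-5p, miR-382-5p, miR-409-3p, miR-411-5p and miR-541-5p. In that smaller fit 9 of 9 fell at 6 weeks, beside 34.9% of 281 entries. The median log2 fold change of the tested members was -5.48 at 6 weeks, from -9.88 to -3.09, beside a median of 0.12 over all tested entries. It was -5.09 when the 7 members listed at 0 in all libraries of that age were given their bound. All 5 libraries at 1 week lay above all 20 adult libraries for 42 of 42 tested members and for 50 of the 70, beside 25.3% of all tested entries.

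The remaining 28 members were too rare to test. Together they held 1505 counts, at most 316 for 1 member. All 15 members without a count in any adult library were among them, and every one of the 70 had a count at 1 week. miR-410-3p, from the last hairpin of the block, had 151 counts at 1 week and none in adults, which puts it at least 59.5-fold lower over the adult libraries with the floor of 3 counts taken over the group. Members with at least 1 count numbered 57 to 66 per library at 1 week and 14 to 40 in adults. Thinned to the depth of the shallowest library, the expected number was 53.5 to 58.1 at 1 week and 13.0 to 31.0 in adults.

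miR-379-5p, the first arm of the block and the leading member at 1 week, measured 3183 CPM in mouse 1, 5252 in mouse 3, 11910 in mouse 4, 5582 in mouse 5 and 21210 in mouse 27. At 6 weeks it measured 71.1, 35.9, 72.6, 88.5 and 123.7 CPM in mice 6 to 10. At 6 months the values of mice 11 to 15 were 56.0, 36.3, 99.1, 33.9 and 95.05 CPM. Values at 6 weeks and 6 months overlap and all lie far below 1 week. At 12 months miR-379-5p measured 45.7, 60.8, 107, 24.3 and 133.9 CPM in mice 16 to 20, and at 14 months 34.3, 128.6, 96.5, 67.9 and 41.2 CPM in mice 21 to 25. From 1 week to 6 weeks it fell by 6.89 on the log2 scale (SE 0.63, edgeR adjusted p = 1.06e-09).

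miR-411-5p, from the neighbouring hairpin, was the most even of the leading members at 1 week, with 1832, 2086, 2374, 2133 and 2721 CPM in mice 1, 3, 4, 5 and 27. It measured 50.2, 35.9, 41.6, 92.9 and 72.6 CPM at 6 weeks and 36.3, 17.7, 119, 19.8 and 40.3 CPM at 6 months. Mouse 13 was the high library at 6 months. At 12 months it measured 32.1, 29.3, 70.7, 11.1 and 89.0 CPM, and at 14 months 16.4, 72.0, 56.6, 44.7 and 26.7 CPM. Its log2 fold change at 6 weeks was -5.23 (SE 0.55, edgeR adjusted p = 5.3e-09).

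miR-382-5p, the first member within Mirg, measured 948, 1244, 1675, 1227 and 2162 CPM at 1 week. It dropped to 4.19, 6.53, 12.6, 15.0 and 28.5 CPM at 6 weeks and 6.87, 4.66, 11.4, 5.21 and 16.3 CPM at 6 months. At 12 months it measured 9.88, 5.13, 9.33, 5.82 and 14.0 CPM and at 14 months 4.48, 15.3, 8.58, 7.36 and 2.70 CPM. No adult library came near the lowest 1-week value. The log2 fold change at 6 weeks was -6.64 (SE 0.47, edgeR adjusted p = 1.03e-11), the smallest adjusted p among the members.

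miR-376b-3p, from the middle of the block, is one of a family of arms that are alike in sequence. It showed another order of the mice at 1 week, with 1424 CPM in mouse 1, 840 in mouse 3, 702 in mouse 4, 790 in mouse 5 and 271 in mouse 27. Mouse 27, the highest library for miR-379-5p, was the lowest for miR-376b-3p. At 6 weeks it measured 30.7, 22.8, 47.4, 101 and 98.7 CPM, and at 6 months 38.3, 51.3, 187, 37.5 and 77.8 CPM. The libraries of 12 months gave 51.9, 74.0, 175, 33.8 and 215.7 CPM, and those of 14 months 56.0, 163, 133.4, 96.8 and 48.0 CPM. It fell by 3.71 on the log2 scale at 6 weeks (SE 0.58, edgeR adjusted p = 3.59e-06). With a mean of 87.0 ± 58.2 CPM (SD, n = 20) it was the most abundant member in adults, ahead of miR-379-5p at 72.6 ± 34.6 and miR-411-5p at 48.8 ± 29.1 CPM. These 3 ranges overlap.

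miR-409-3p, towards the end of the block, measured 202, 360, 618, 375.5 and 794 CPM at 1 week and 4.19, 1.63, 4.84, 8.85 and 12.5 CPM at 6 weeks. At 6 months it measured 4.91, 1.86, 8.77, 1.56 and 10.6 CPM, at 12 months 3.71, 5.13, 9.78, 0.529 and 3.91 CPM, and at 14 months 4.48, 8.00, 8.15, 7.36 and 2.37 CPM. Its log2 fold change at 6 weeks was -6.04 (SE 0.56, edgeR adjusted p = 7.05e-10).

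**Figure D3:**
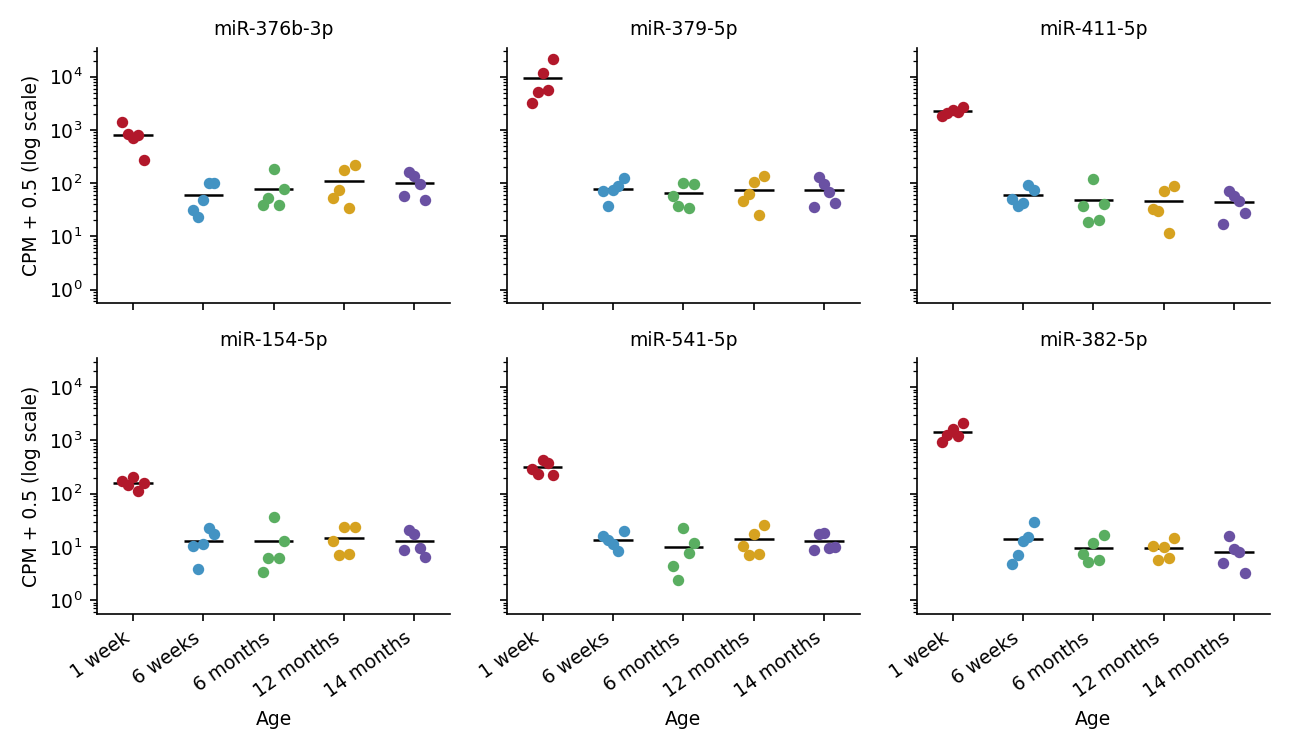
CPM + 0.5 on a log axis, by age, of the 6 members with the highest adult means. Points are single libraries and horizontal lines are means of 5. In each panel the 5 libraries at 1 week lie above all 20 adult libraries, and miR-376b-3p has the highest adult mean.

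The next members by level at 1 week were miR-494-3p (385 CPM ± 209, SD, n = 5), miR-541-5p (312 ± 90.1), miR-134-5p (287 ± 132.9), miR-300-3p (284 ± 98.2) and miR-299a-3p (212 ± 111). miR-134 is best known as a regulator of dendritic spines in neurons. It fell by 7.24 on the log2 scale at 6 weeks, to 0 counts in 2 of 5 libraries there. Changes of the other members in this group lay between -6.19 for miR-494-3p and -4.54 for miR-541-5p. miR-300-3p differs from miR-381-3p by G4A, U21G and C22U. Their counts differed by up to 0.964 on the log2 scale in single libraries at 1 week. In all adult libraries together they had 173 and 168 counts. The largest difference in any library, 2.81, came from 0 against 3 counts in mouse 6.

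The largest fitted falls belonged to members without a count at 6 weeks, for which the fitted size is no bound. miR-329-3p measured 26.1, 31.8, 66.2, 34.0 and 102 CPM at 1 week and was at least 112-fold lower at 6 weeks, with the floor of 3 counts over the group. For miR-370-3p, a Rian intron miRNA linked to lipid metabolism in liver, the values at 1 week were 18.6, 34.0, 46.1, 32.5 and 41.9 CPM, and it was at least 62.5-fold lower. miR-496a-3p was at least 44.8-fold and miR-679-5p at least 36.3-fold lower. In all adult libraries together these 4 members had 6, 2, 9 and 2 counts.

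The smallest falls among the tested members were those of miR-376c-3p (log2 fold change -3.09, SE 0.76, edgeR adjusted p = 0.000749), miR-154-3p (-3.21, SE 0.76), miR-487b-3p (-3.31, SE 0.69) and miR-154-5p (-3.59, SE 0.53). miR-154-5p measured 175, 146, 203, 114 and 156 CPM at 1 week and 2.95 to 35.9 CPM in adults, with a median of 10.2. Both arms of Mir154, a Mirg intron hairpin, were therefore in this group. Against all 4 adult ages miR-376b-3p had the smallest change, -3.24 (SE 0.36), beside -7.02 (SE 0.35) for miR-379-5p and -5.51 (SE 0.32) for miR-411-5p. Over 39 tested members with a sequence, the change against the adult ages had a Pearson r of -0.503 with the GC percent of the mature sequence (Spearman rho -0.505), a description over members that share libraries. Only 9 members passed the filter in adult libraries alone, so most of these changes rest on few adult counts and their sizes are uncertain. The same value was not computed over other miRNAs, so no conclusion is drawn from it.

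Few members were called between adult ages. At 6 months against 6 weeks, 1 of 42 was called by edgeR, beside 1.79% of all entries, and 1 had an unadjusted p under 0.05, beside 8.18% of all entries. That member was miR-409-5p, with 5, 2, 10, 8 and 9 counts at 6 weeks and 0, 0, 3, 1 and 0 counts at 6 months. Its log2 fold change was -3.24 (SE 0.65, edgeR adjusted p = 0.00776), while its other arm, miR-409-3p, was not called. Without mouse 14 the adjusted p of miR-409-5p was 0.0539, and with only these 2 ages in the fit it did not pass the filter on low counts and was not tested. At 14 months miR-409-5p had 1, 3, 7, 5 and 5 counts, and its change from 6 weeks was -1.62 (SE 0.50, edgeR adjusted p = 0.0783).

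At 12 against 6 months edgeR called 0 of 42 members and DESeq2 called 0, beside 0% of all entries called by edgeR. An unadjusted p under 0.05 was reached by 0 members, beside 7.16% of all entries. At 14 against 12 months edgeR called 0 and DESeq2 called 0, again beside 0%, and 1 member had an unadjusted p under 0.05, beside 2.05% of all entries. At 14 months against 6 weeks edgeR called 0 and DESeq2 called 0, beside 3.84% of all entries called by edgeR. There 7 of 42 members (16.7%) had an unadjusted p under 0.05, beside 23.5% of all entries. These 7 were miR-323-3p, miR-376a-5p, miR-379-3p, miR-382-5p, miR-409-5p, miR-411-3p and miR-487b-3p. Only 9 members passed the filter in adult libraries alone, beside 281 entries in all. Most members thus had few counts at the ages compared, so a smaller share does not show that they were steadier in adults. For the 3 abundant adult members the change from 6 weeks to 14 months was 0.69 (SE 0.54) for miR-376b-3p, -0.11 (SE 0.51) for miR-379-5p and -0.46 (SE 0.48) for miR-411-5p, each smaller than 2 SE.

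Within the cluster, miR-379-5p outnumbered miR-376b-3p in every 1-week library and in none at 12 or 14 months. This pair was picked after its values were seen, so the ratio of their counts is a description with no test. At 1 week the ratio was 2.24, 6.25, 17.0, 7.06 and 78.2 in mice 1, 3, 4, 5 and 27. At 6 weeks it was 2.32, 1.57, 1.53, 0.877 and 1.25, and at 6 months 1.46, 0.709, 0.531, 0.903 and 1.22. It was 0.609 to 0.881 at 12 months and 0.613 to 0.859 at 14 months, below 1 in all 10 libraries. By age, the mean log2 ratio was 3.40 ± 1.92 (SD, n = 5) for 1 week and 0.52 ± 0.51 for 6 weeks. For mice of 6, 12 and 14 months it was -0.14 ± 0.59, -0.47 ± 0.24 and -0.45 ± 0.18. In cluster shares, miR-379-5p made up 48.3% ± 14.9 of the member counts at 1 week and 22.8% ± 1.29 at 14 months, and miR-376b-3p 6.15% ± 4.83 and 31.1% ± 2.86.

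**Figure D4:**
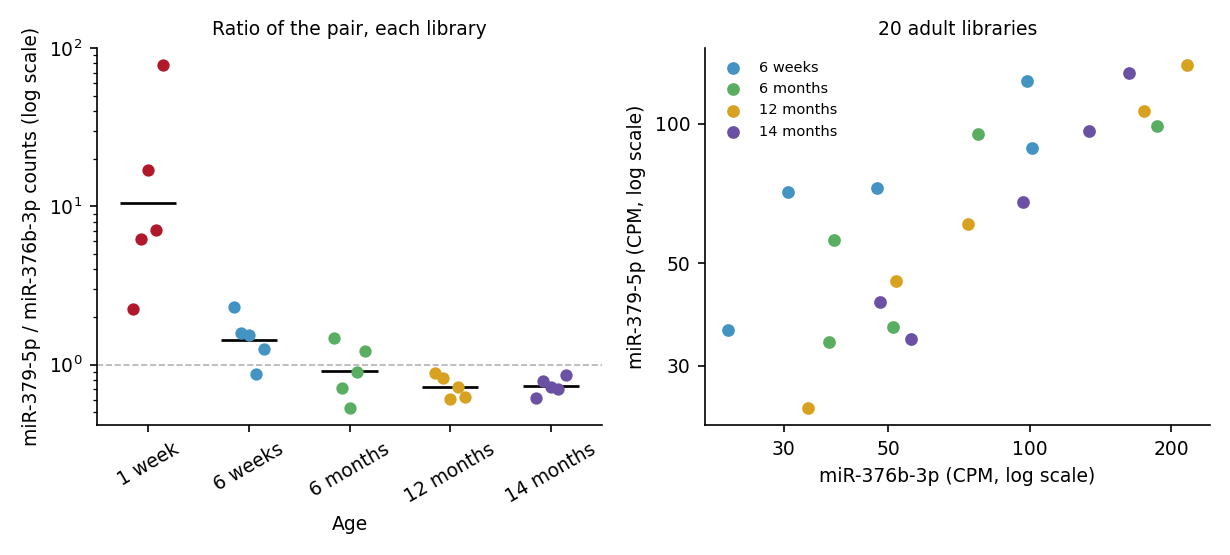
Left, ratio of miR-379-5p to miR-376b-3p counts on a log axis in each library, by age, with the geometric mean as a line and a ratio of 1 dashed. Right, CPM of the pair in the 20 adult libraries on log axes. The ratio lies between 2.24 and 78.2 at 1 week and below 1 in all libraries at 12 and 14 months, and in adults the pair is high or low in the same libraries.

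In adults the abundant members varied together from mouse to mouse. Across 20 libraries, on log2(CPM + 0.5), miR-379-5p and miR-411-5p had a Pearson r of 0.905 (Spearman rho 0.901), and r was 0.865 without the 2 farthest libraries and 0.913 after centring each age. For miR-376b-3p with miR-379-5p, r was 0.809 (rho 0.806), 0.775 without the 2 farthest libraries and 0.906 within ages. For miR-376b-3p with miR-411-5p, r was 0.723 (rho 0.7098), 0.628 without the 2 farthest and 0.896 within ages. Over these 3 relations the adjusted permutation p was 3e-05, 3e-05 and 0.00038 for r and 1.5e-05, 1.5e-05 and 0.00069 for rho. The raw p of the first pair, 1e-05, is the smallest that 100000 permutations can give. In a second family of 11 relations, miR-376b-3p had an r of 0.697 (rho 0.677, adjusted permutation p = 0.00627 and 0.0140) with the sum of the miRNAs closer to Meg3, 0.654 without the 2 farthest libraries and 0.823 within ages. None of the other 10, 9 sums of cell type markers and the library total, had an adjusted p under 0.05, and the one nearest to it was the endothelial sum (r = -0.538, rho = -0.495, adjusted permutation p = 0.0671 and 0.151). Within ages, r was -0.531 for the endothelial, -0.508 for the hepatocyte and 0.452 for the erythroid sum. For the rest it ran from -0.260 for the leukocyte sum to 0.228 for the library total. The within-age values were not tested.

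For most hairpins the same arm led in every 1-week library. Of 32 hairpins with both arms in the table, 26 had at least 20 counts over both arms in each 1-week library, and 23 of these had the same leading arm in all 5. The 5p arm led on average in 10 and the 3p arm in 16. The 5p share at 1 week was 99.7% ± 0.191 (SD, n = 5) for Mir379, 94.3% ± 1.95 for Mir154 and 0.237% ± 0.259 for Mir494. In 17 hairpins the adult libraries held at least 20 counts together, and 15 kept the leading arm. One exception was Mir299a, with a 5p share of 34.3% ± 4.90 at 1 week and a pooled 56.8% in adults (95% Clopper-Pearson interval 51.2 to 62.4). The other was Mir376c, whose 5p counts could not be kept apart from those of Mir376b, so the shares of these hairpins are not given, though both are in the counts above.

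Mir379 and Mir411 had at least 20 counts in every library of the ages compared, so that their arm share could be tested. Between 1 week and 6 weeks the 5p share of Mir379 went from 99.7% to 99.5% ± 0.678 and that of Mir411 from 99.4% to 99.6% ± 0.483 (two-sided exact permutation test, adjusted p = 0.548 for both). At 14 months it was 96.6% ± 1.23 for Mir379 and 95.3% ± 2.28 for Mir411, lower than at 6 weeks in 5 of 5 libraries each (exact permutation p = 0.00794, the smallest that 5 against 5 can give, adjusted p = 0.00794). The 3p counts behind this were 0, 0, 0, 1 and 3 for miR-379-3p at 6 weeks and 2, 9, 8, 4 and 2 at 14 months. For miR-411-3p they were 0, 0, 0, 1 and 1 and 1, 8, 8, 4 and 1. A count of 0 in mice 6, 7 and 8 allowed a 3p share of up to 5.88, 13.6 and 4.00% for Mir379 of counts, limits that reach into the range seen at 14 months. Since the 2 3p arms are nearly alike, these are not separate results.

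The 5 mice at 1 week differed from each other in the profile of the cluster. Mouse 27, the most deeply counted library, lay above the other 4 in 18 of the 42 tested members, below them in 15 and between in 9. Of 289 other entries above 5 CPM at 1 week, mouse 27 was above the other 4 in 36.3% and below in 35.6%, so standing apart was not limited to the cluster. Its 4 largest differences upwards were in miR-379-5p, miR-543-5p, miR-485-5p and miR-1193-3p, and the 4 largest downwards in miR-376b-3p, miR-369-3p, miR-376c-3p and miR-300-3p. Its difference from the mean of the other 4 mice had an r of 0.384 with GC percent over 39 members (rho 0.393), beside 0.251 over 222 other miRNAs. The median GC content was 47.8% for 17 members above and 44.0% for 13 below. With mouse 27 left out, 42 of 42 members still fell at 6 weeks. Most members passed the filter through their 1-week counts alone, so this count had little room to change.

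**Figure D5:**
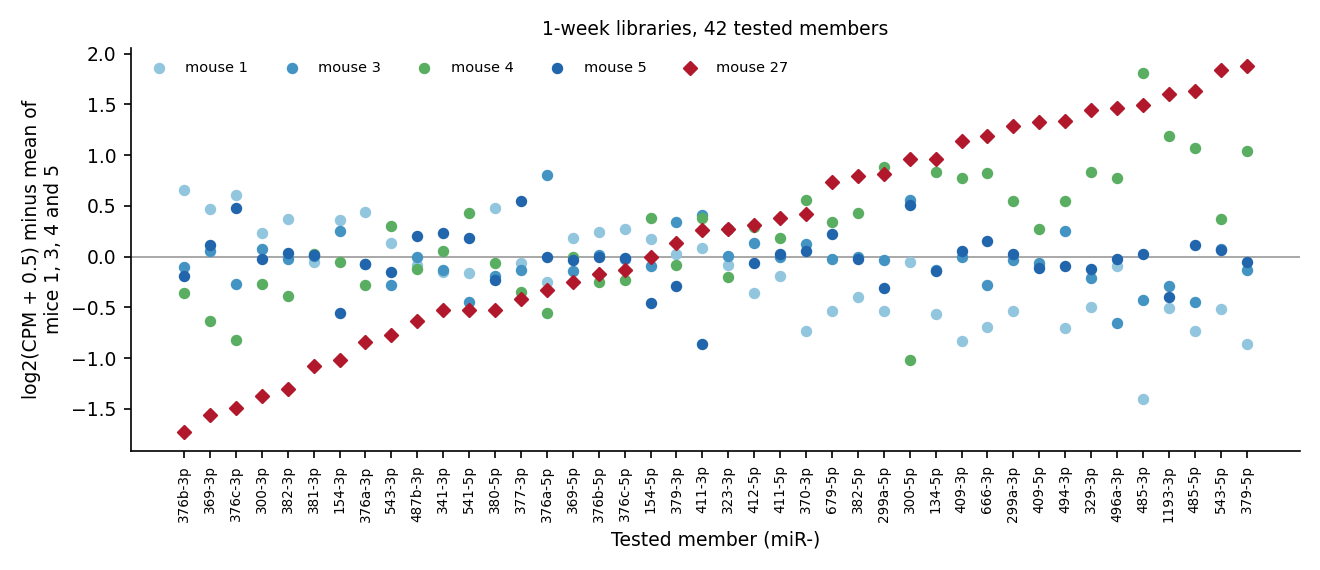
For each of the 42 tested members, log2(CPM + 0.5) in each 1-week library minus the mean of mice 1, 3, 4 and 5, with members ordered by the value of mouse 27. Diamonds are mouse 27 and circles the other mice. Mouse 27 runs from the lowest values at miR-376b-3p to the highest at miR-379-5p.

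Markers of other cell types also differed between the 1-week mice, in which the cluster sum ran from lowest to highest in the order 1, 3, 5, 4 and 27. The 9 muscle entries summed to 328, 211, 520, 61.3 and 1130 CPM in mice 1, 3, 4, 5 and 27 and to 1.94 to 15.4 CPM in adults. Mice 27 and 4 were highest for the muscle sum and for the cluster, while mice 1, 3 and 5 ran in the opposite order. The list was led by miR-206-3p, a skeletal muscle miRNA, with 989 CPM in mouse 27 and 50.4 in mouse 5, while miR-1a-3p measured 119 and 6.37 CPM. Other muscle entries did not all peak in mouse 27. In mice 1, 3, 4, 5 and 27 miR-133a-3p measured 18.8, 23.8, 17.0, 1.21 and 14.0 CPM. For miR-133b-3p the values were 7.48, 4.81, 4.12, 0.607 and 3.11 CPM. Mouse 27 was lowest for miR-499-5p (0.943 CPM), highest for miR-208b-3p (1.70 CPM) and below mouse 4 for miR-1b-3p (2.07 and 3.86 CPM). In mouse 27, 7 of the 9 entries had a count, and miR-1a-1-5p and miR-1b-5p had none.

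The biliary and pancreas sums ordered the 5 mice as the cluster did, while other sums did not. In mouse 27, highest for the cluster, the erythroid, stellate and endothelial sums were the lowest of the 5 (417, 5096 and 21071 CPM). Its neuron sum was the highest, and its hepatocyte and leukocyte sums lay between those of other mice. The 9 biliary entries summed to 864, 958, 1217, 1062 and 1382 CPM in mice 1, 3, 4, 5 and 27 and to 357 to 615 CPM in adults. The 8 pancreas entries summed to 271, 441, 686, 530 and 1249 CPM and to 593 to 930 CPM in adults, which overlaps 1 week. Nearly all of the mean pancreas sum came from miR-7a-5p and miR-7b-5p, whose means were similar at every age. The order of the pancreas sum is therefore not a result of 8 separate entries. At 6 weeks 2 of 2 tested muscle, 5 of 5 biliary, 4 of 5 erythroid and 5 of 6 leukocyte entries were lower by edgeR. Of all tested entries 36.8% were lower. The 4 erythroid entries include miR-486a-5p and miR-486b-5p, whose values were the same. Of 9 tested stellate and smooth muscle entries 0 were lower and 3 higher. Of 2 tested endothelial entries 0 were lower and 1 higher, and of 2 tested neuron entries 1 was lower and 1 higher. Of 4 tested pancreas entries, 1 was lower and 1 higher. The 11 neuron entries summed to 62.2 to 113 CPM at 1 week and 92.1 to 367 CPM in adults, ranges that overlap. The part of these cell types and tissues in the cluster level was not tested.

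Of the miRNAs of other imprinted genes, 3 lists were looked at. Among the 24 entries closer to Meg3, on the same maternal transcripts, 14 were tested and 14 of 14 fell at 6 weeks, with a median log2 fold change of -4.97. Their sum at 1 week was 3023, 2535, 3001, 2948 and 1718 CPM in mice 1, 3, 4, 5 and 27, so mouse 27 was lowest here and highest for the Rian-Mirg members. The ratio of the cluster sum to this sum was 3.43 to 17.9 at 1 week and 3.35 to 11.0 in adults. Of the miRNAs hosted by H19 and Igf2, an imprinted pair active in fetal liver, 3 of 4 entries were tested and 3 fell, and of those hosted by Gnas and Mest 4 of 5 were tested and 4 fell, beside the 36.8% of all tested entries given above. As in the cluster, entries that passed the filter through 1 week alone had to fall, so these counts are a description: miR-675-3p averaged 45.5 CPM at 1 week and 0.415 CPM at 6 weeks, with no count at later ages. miR-335-5p, hosted by Mest, stayed well above the floor, with 2020 CPM at 1 week and a log2 fold change of -2.03 (SE 0.18) at 6 weeks. The ages and libraries of all these lists are shared, and differences between the lists were not tested. Hepatocyte miRNAs went the other way, with 7 of 8 tested entries higher at 6 weeks. Among all tested entries, slightly fewer were higher than the 36.8% that were lower. Of the 7, miR-122-5p and miR-148a-3p rose least. The size of such rises depends on the scaling, as the median of all entries moved from 0.12 with TMM to -0.54 with library totals.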

How the data were processed

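Small RNA libraries (QIAseq miRNA kit) from liver-tissue sEVs of 25 mice were sequenced by the submitters. The authors deposited 1 table of whole-number counts per miRNA entry and library, with an entry length. Bowtie, edgeR and mm10 are named per the submitters' processing notes, with no versions. The sources used here do not state if they count reads or molecules. The deposited counts were used unchanged.

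edgeR 4.0.16 (TMM scaling, filterByExpr by age, robust quasi-likelihood fit) was run on all 25 libraries with age as the term, and p-values were adjusted by Benjamini-Hochberg over all 391 tested entries. CPM uses TMM-scaled totals. DESeq2 1.42.0 was an alternative. Arm shares were compared by exact permutation in scipy 1.17.1 (R 4.3.3, Python 3.11.15). The fit was tested on simulated data. The mice of an age are separate animals. Positions and sequences are from RefSeq and GENCODE M21 on GRCm38.

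The members, marker lists and tests were chosen with earlier results of these data known. Members named in the text were the 10 highest at 1 week, the 6 highest in adults, the 4 most and 4 least lowered, any called between adult ages, and both arms of hairpins in the arm test. Leaving out each library, other scalings, filters and fits were tried as alternatives.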

Additional observations from a re-analysis of the deposited data

Results flagged for a closer look

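In groups of 5 libraries, the gap from the highest or lowest library to its neighbour was compared with the range of the group. Of 87 groups, 8 stood out, in 4 libraries. The cut-off gives about 1 in 20 by chance only for independent groups of normally distributed values. Groups here share libraries and members that vary together, so 8 is not read against that rate. Only groups of single members with a mean count of at least 3 were looked at, a limit set after seeing the data.

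Mouse 27 was high at 1 week for the ratio of miR-379-5p to miR-376b-3p (78.2, next 17.0) and for miR-409-5p (159 CPM). Mouse 13 was high at 6 months for miR-376b-3p (187 CPM, next 77.8), miR-411-5p (119 CPM, next 40.3) and miR-154-5p (35.9 CPM, next 12.5). Mouse 10 was high at 6 weeks for miR-494-3p (9.52 CPM, next 4.43) and for the summed Rian-side members (3.57 CPM, the other 4 libraries at 0). That sum was 6 counts of miR-341-3p in the deepest library of this age. The floor of 3 counts stood for 4.19 CPM in mouse 6 and 4.89 CPM in mouse 7, above this value. Mouse 21 had the fewest members detected at 14 months (24, next 31). It also had the smallest total of that age (1543907 counts). Thinned to the depth of the shallowest library, its expected number was 17.4, next 19.0 in mouse 25.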

How the results depend on the processing

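The fall of the members from 1 week to 6 weeks kept its direction in the alternatives run: 42 of 42 were called without each of the 10 libraries of these ages, under 3 other scalings, without a filter, with DESeq2, with named miRNAs only and with only those ages fitted. With the log2 library total as a covariate 41 were called, miR-543-5p being lost. Most of the 42 passed the filter through 1-week counts alone, so these numbers are no measure of how many members fell. Of 367 alternative values for the fold changes of single members 366 kept their side of the threshold and 1 lost it, miR-409-5p at 6 months without mouse 14, and 0 reversed. The mean log2 ratios of miR-379-5p to miR-376b-3p, which have no test, moved by less than 1 SD in 30 of 30 alternatives. With the filter set on adult libraries, 9 members remained testable: 9 were called over the 5 ages, 9 at 6 weeks, 9 against all adults and 0 at 6 months against 6 weeks. Without a filter 64 members were lower in adults, a count given without the share of all entries. The members added there had few or no adult counts, so it is no measure of how many fell. At 6 months against 6 weeks the number called was 0 with only these 2 ages fitted, where 6 members passed the filter and miR-409-5p did not, and 0 to 1 without single libraries. At 14 months against 6 weeks it was 1 with library totals alone, 1 with the depth covariate and 1 with named miRNAs only, miR-409-5p each time, and 0 to 1 without single libraries, miR-487b-3p being called without mouse 9. The median log2 fold change at 6 weeks was -5.94 with DESeq2 size factors, -6.15 with library totals, -5.90 with TMM computed without the cluster, -5.81 without a filter, -5.89 with the adult filter, -5.23 with the covariate, -6.03 in DESeq2, and -5.99 to -5.31 without single libraries. The median of all entries shifted from 0.12 to -0.35, -0.54 and -0.30 under the first 3 of these. The summed 1-week level was 27018 CPM with library totals and 8073 without miR-379-5p. For the Rian-side members it was 111 with DESeq2 size factors, 132 with library totals, 109 with TMM without the cluster and 35.1 without the leading member, and for the others 26886 and 7988 with library totals and without the leading member. Members detected with at least 3 counts averaged 15.6 at 6 weeks, 15.6 at 6 months and 17.2 at 12 months. The 5p share of Mir379 at 6 weeks minus 1 week ran from -0.316 to 0.0397 percentage points without single libraries, reversing to 0.0397 without mouse 10. The 14-month arm differences kept an adjusted exact permutation p of 0.0159 to 0.0238 without single libraries. Except where a filter or fewer samples shows it, the cause was not tested. Adult counts of 0 to 3 per library limit what could be seen for most members. No paired analysis was possible because mouse numbers are not shared between ages.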
